A study of Mus musculus with 6 samples.

Results

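The matrix metalloproteinases (MMPs), the ADAMTS proteases, the ADAMTS-like proteins and the tissue inhibitors of metalloproteinases (TIMPs) were followed in CD73+CD105+ and CD73+CD105- cells of mouse bone marrow. Members were chosen by gene symbol from probe sets with 1 symbol, which gave 49 of the 19938 genes tested: 22 MMPs, 18 ADAMTS proteases, 5 ADAMTS-like genes and 4 TIMPs. Mmp15 and Adamts2, which the reference gene table also lists, were not analysed here. Both groups were sorted from primary bone marrow as cells without CD45, a leukocyte protein, and Ter119, an erythroid protein, and with CD73, a surface enzyme that makes adenosine. They differed in CD105 (endoglin), and 3 samples of CD73+CD105+ cells and 3 of CD73+CD105- cells were each hybridised to 1 array. The titles call the replicates biological, but the labels give no strain, age, genotype or number of animals. What the p-values measure is thus the spread among the samples given, and part of it may be technical. The sorted populations are mixtures, and a larger number of cells of one type and more RNA per cell cannot be told apart in them.

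MMPs are zinc-dependent enzymes made as inactive precursors, and they cut collagens, elastin, proteoglycans and many signalling proteins outside the cell. ADAMTS proteases carry thrombospondin repeats that tether them to the matrix; some cut the large proteoglycans, others trim procollagens or von Willebrand factor. ADAMTS-like proteins share the repeats but lack the protease domain, and several bind fibrillin microfibrils. TIMPs block the active site of MMPs, and TIMP3 also blocks several ADAMTS and ADAM enzymes. In bone, MMPs are known for opening the growth plate and for the resorption of matrix, and in mouse marrow MMP9 is known for releasing soluble Kit ligand.

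Values are log2 expression levels, and every difference is CD73+CD105+ minus CD73+CD105- on that scale. The array medians over all probe sets lay between 6.27 and 6.35, and r across genes was 0.992 to 0.995 within groups and 0.984 to 0.991 between them. As a yardstick for background, the mean levels of 1190 odorant and pheromone receptor genes (Olfr, Vmn1r and Vmn2r), which marrow has no known use for, had a 95th percentile of 6.01, called the receptor level below. Averaged over the pair of replicate 1 arrays, probe sets had nearly the same level as over the other 4 arrays (SD of the gap 0.0627), a balance that the labels do not explain and that can make errors look smaller. The adjusted p with a term for replicate 1 in the fit is therefore also given for Mmp9, Mmp13, Mmp2, Adamtsl3, Plat and Spock3. Eng, which encodes CD105, stood at 8.27, 7.79 and 8.12 in CD73+CD105+ cells, against 6.20, 6.55 and 6.15 in CD73+CD105- cells, so the arrays follow the gate. Of 6 endothelial marker genes all 6 rose in CD73+CD105+ cells, with list means of 8.29 to 8.69 against 5.50 to 5.94 in CD73+CD105- cells, and of 6 reticular stroma genes 5 rose. The limma adjusted p was 0.000272 to 0.0182 for the endothelial genes and 0.00869 to 0.044 for the 5 reticular stroma genes. Of 5 pericyte and smooth muscle genes 1 rose, Rgs5 (difference 1.72, adjusted p = 0.024), while 2 of the 5 differences lay below 0. Whether these marker calls hold with a term for replicate 1 is not given here. That list had means of 7.78 to 8.18 in CD73+CD105+ cells, against 7.43 to 7.67 in CD73+CD105- cells. The 6 chondrocyte markers, of which 0 passed, had list means of 10.75 to 11.18 in CD73+CD105+ cells, against 11.23 to 11.47 in CD73+CD105- cells. The part of these cell types in the results below was not tested.

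Among the members 10 MMP genes lie side by side on chromosome 9 with no other protein-coding gene between them in the reference table (GRCm38.p6), in the order Mmp13, Mmp12, Mmp1b, Mmp3, Mmp1a, Mmp10, Mmp8, Mmp27, Mmp20 and Mmp7. The last 100 bases before the transcription start of 5 of them are shown, because the promoters of this cluster share short motifs although the measured levels of its genes lie on both sides of the receptor level. Sequences are from RefSeq (GRCm38.p6), plus strand, 5′ to 3′, at chr9:7272414-7272513 (Mmp13), chr9:7445722-7445821 (Mmp3), chr9:7502242-7502341 (Mmp10), chr9:7464041-7464140 (Mmp1a) and chr9:7558329-7558428 (Mmp8). Capitals mark matches to TGANTCA, a pattern that includes TGACTCA and TGAGTCA, the core that AP-1 factors bind, and to TATAAA, the letters of a TATA box. TATAAA began 7 bases before the start in Mmp3, 16 in Mmp13, 28 in Mmp1a and 29 in Mmp10, and its position was not used in the search.
Mmp13: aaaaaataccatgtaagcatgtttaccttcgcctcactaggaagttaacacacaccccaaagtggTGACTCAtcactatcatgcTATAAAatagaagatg
Mmp3: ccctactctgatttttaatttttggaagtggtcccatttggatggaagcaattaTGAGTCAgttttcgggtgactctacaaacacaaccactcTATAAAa
Mmp10: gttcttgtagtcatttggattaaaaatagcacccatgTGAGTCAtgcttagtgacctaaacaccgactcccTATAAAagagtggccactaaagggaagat
Mmp1a: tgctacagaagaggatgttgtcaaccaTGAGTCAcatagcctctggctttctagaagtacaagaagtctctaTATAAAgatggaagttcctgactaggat
Mmp8: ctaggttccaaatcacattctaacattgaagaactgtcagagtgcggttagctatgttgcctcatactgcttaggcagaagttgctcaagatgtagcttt

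Both motifs were searched on both strands in the 250 bases before each start. RefSeq windows were at hand for 34 of the 49 members, Mmp9 and Mmp2 not among them. In the chromosome 9 cluster 8 of 12 windows (66.7%) held TGANTCA and 7 of 12 (58.3%) held TATAAA, against 6.75% and 12.4% of 32851 mouse windows of the same length. All 8 members with TGANTCA belonged to this cluster, and the match of Mmp20, TGAATCA, is not the AP-1 core given above. Of the 13 ADAMTS and ADAMTS-like windows 0 held TGANTCA and 2 held TATAAA, and of the 4 TIMP windows 0 held either. A match describes letters and is not a measured binding site. Mmp13, Mmp3 and Mmp10 were above the receptor level, while Mmp1a, with both motifs, and Mmp8, with neither in this window, were below it in both populations, as were the other 5 genes of the cluster.

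**Figure D1:**
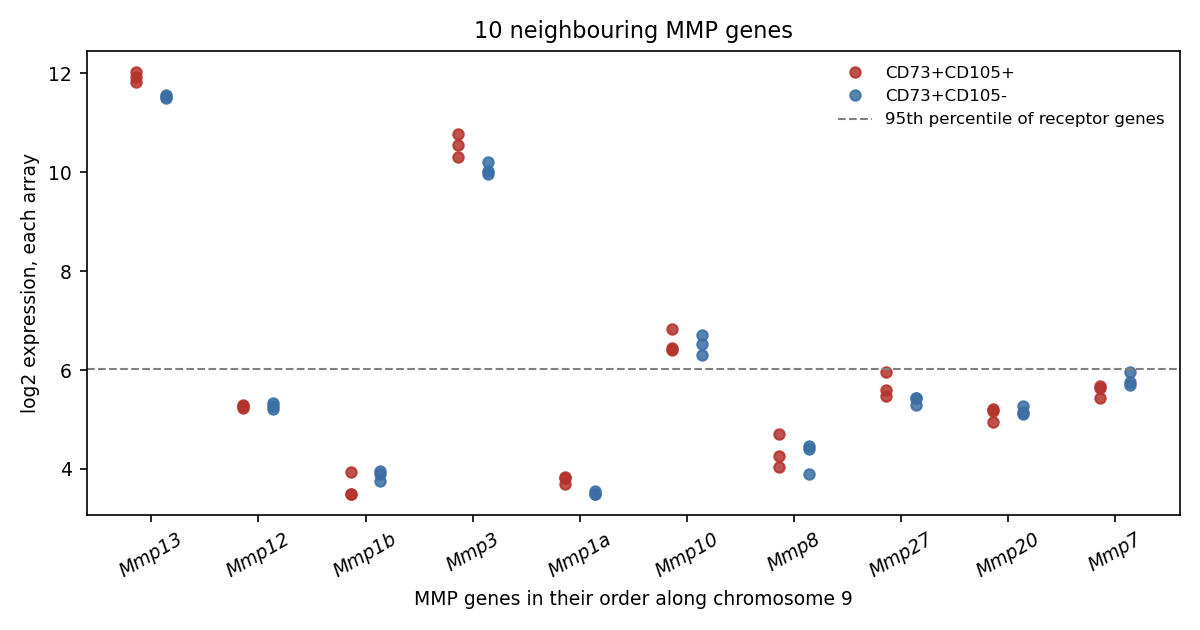
The log2 level on each array (y axis; CD73+CD105+ left and red, CD73+CD105- right and blue) is plotted for the 10 MMP genes in their order along chromosome 9, with the receptor level of 6.01 as a dashed line. Mmp13, Mmp3 and Mmp10 lie above the line on every array and the other 7 genes lie below it on every array.

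Of the 49 members 1 rose in CD73+CD105+ cells, 0 fell and 48 did not pass a Benjamini-Hochberg adjusted p of 0.05 in limma (1 of 49, or 2.04%). Over all genes 1.82% passed, 1.35% higher and 0.466% lower, so the share of members that passed was near that of genes at large. At an unadjusted p under 0.05 there were 12 of 49 members higher, against 8.58% of all genes. There was 1 of 49 lower, against 9.09% of all genes, and together these were 13 of 49, against 17.7% of all genes. The difference lay above 0 in 34 members, with a median of 0.11, against a median of -0.02 over all genes, 44.4% of which lay above 0. In 13 members all 3 CD73+CD105+ arrays lay above all 3 CD73+CD105- arrays (26.5%, against 10.7% of all genes). In 2 of 49 they lay below, against 12.9% of all genes, and together these were 15 of 49 (30.6%, against 23.7% of all genes). No filter on low values was applied, and 13 of the members had both group means below the receptor level. The 4 members whose SD in CD73+CD105- cells was above 0.3 were Mmp8, Mmp23, Adamts9 and Adamtsl1. In CD73+CD105+ cells the 4 above 0.3 were Mmp8, Mmp9, Adamts9 and Adamtsl3. The median SD over members was 0.13 in each population, against 0.11 over all genes in each.

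**Figure D2:**
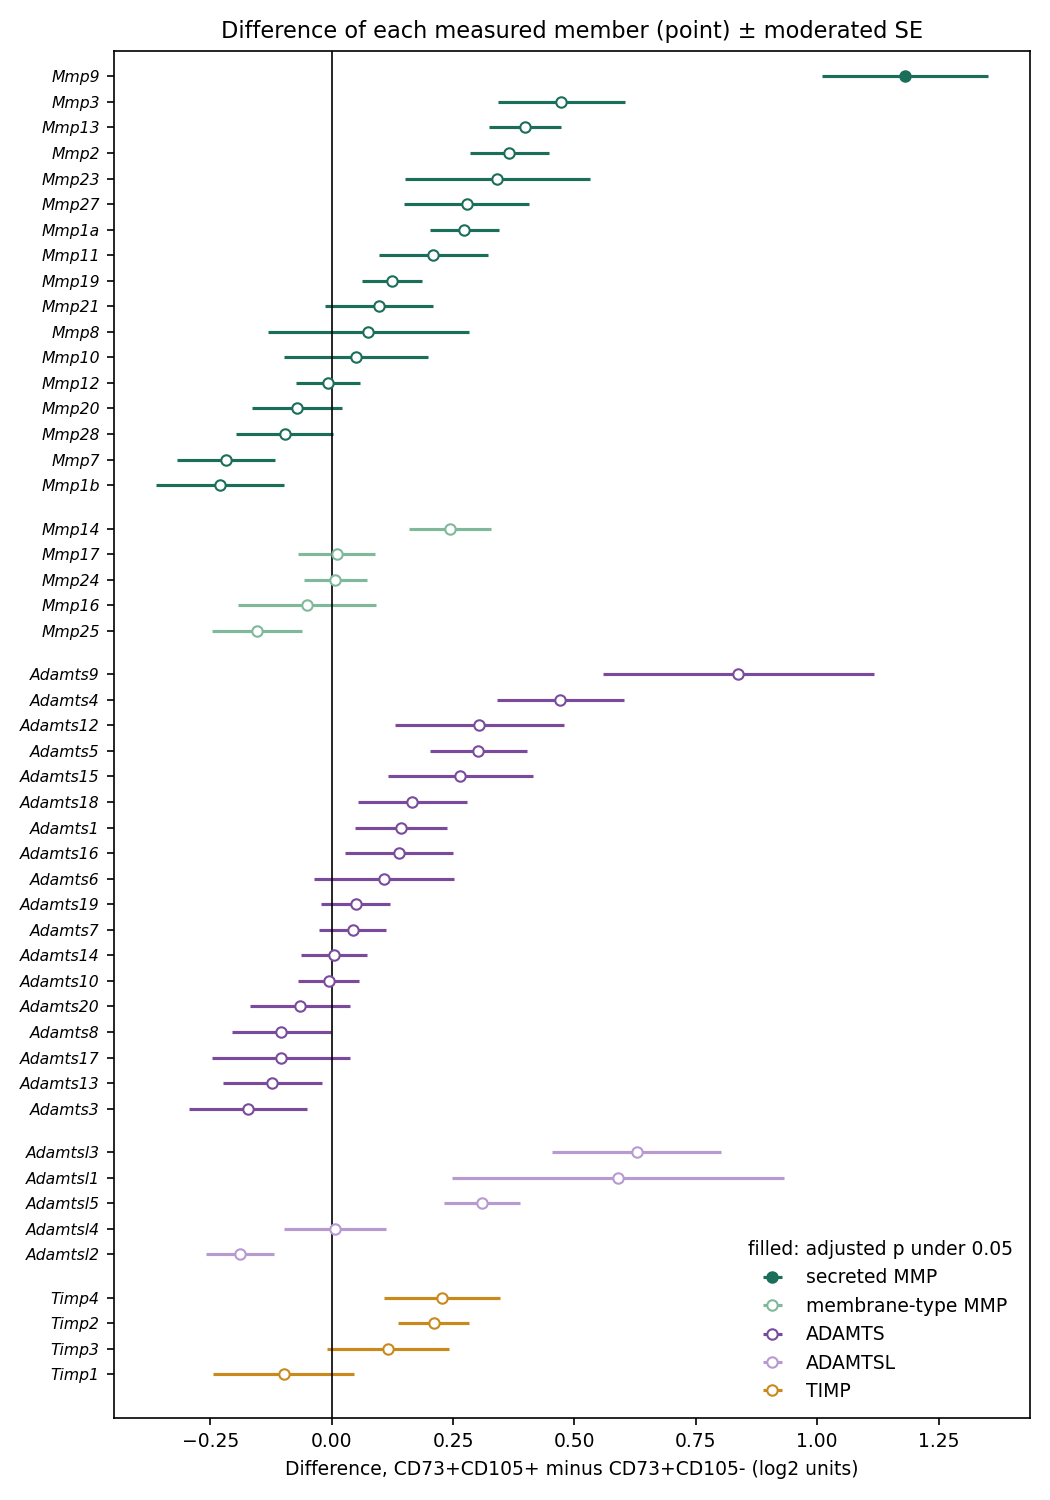
Each point is the difference of 1 member, CD73+CD105+ minus CD73+CD105- (x axis, log2 units), with its moderated standard error, ordered within the 5 groups of genes (y axis). Mmp9, at 1.18, is the single filled point, which marks an adjusted p under 0.05, and the points of 34 of the 49 members lie right of 0.

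Mmp9 encodes gelatinase B, which cuts denatured collagen and the collagen of basement membranes and which osteoclasts and neutrophils are known to make in quantity. Its level was 7.65, 7.23 and 7.87 in CD73+CD105+ cells, against 6.41, 6.21 and 6.58 in CD73+CD105- cells. All 3 CD73+CD105+ arrays lay above all 3 CD73+CD105- arrays. The level averaged 7.58 ± 0.32 in CD73+CD105+ cells, against 6.40 ± 0.18 in CD73+CD105- cells (SD, n = 3 each), a difference of 1.18 (SE 0.17, 2.27-fold, limma adjusted p = 0.0226). The difference was 1.24 within replicate 1, against 1.15 over replicates 2 and 3, and it stayed between 1.04 and 1.36 when single arrays were left out. The adjusted p varied more, and was 0.0642 with a term for replicate 1 and 0.304 in replicates 2 and 3 alone. With replicate 1 or 3 of the CD73+CD105+ cells left out it was 0.0892 or 0.057, and with replicate 1 or 2 of the CD73+CD105- cells left out 0.087 or 0.0765.

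Markers of other cells that make Mmp9 were read in the same arrays, although the sort for cells without CD45 should remove most leukocytes. Ptprc, the gene of CD45, averaged 4.70 ± 0.06 in CD73+CD105+ cells, against 4.71 ± 0.05 in CD73+CD105- cells (SD, n = 3 each), under the receptor level on both sides. Of 6 osteoclast genes 0 passed, with list means of 7.03 to 7.10 in CD73+CD105+ cells, against 6.84 to 7.004 in CD73+CD105- cells, groups that did not overlap. Acp5, the acid phosphatase of osteoclasts, differed by 0.37 (adjusted p = 0.0582), Atp6v0d2, a proton pump subunit, by 0.61 (adjusted p = 0.321) and Ctsk, cathepsin K, by 0.27 (adjusted p = 0.202). Dcstamp, a fusion protein of osteoclasts, and Calcr, the calcitonin receptor, were below the receptor level in both populations, at differences of -0.26 and -0.00442. Ocstamp lay just above that level and differed by -0.14, at 6.06 in CD73+CD105+ cells, against 6.20 in CD73+CD105- cells. Thus 3 of the 6 osteoclast differences lay above 0 and 3 below. Of 7 neutrophil genes 0 passed and 5 had both means below the receptor level, among them Elane, Mpo and Ltf, which encode granule proteins. The other 2 lay above it: S100a9 averaged 7.28 in CD73+CD105+ cells, against 7.26 in CD73+CD105- cells, and S100a8 6.45 against 6.28. Neutrophil list means were 5.76 to 6.15 in CD73+CD105+ cells, against 5.61 to 6.02 in CD73+CD105- cells. The 6 macrophage genes, with 0 past the threshold and 3 below that level, had list means of 5.65 to 5.75 in CD73+CD105+ cells, against 5.59 to 5.67 in CD73+CD105- cells. The 4 measured megakaryocyte genes, with 0 past the threshold and 3 below that level, had list means of 5.33 to 5.60 in CD73+CD105+ cells, against 5.28 to 5.38 in CD73+CD105- cells. The part of any of these cells, or of the endothelial cells named above, in the Mmp9 difference was not tested.

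**Figure D3:**
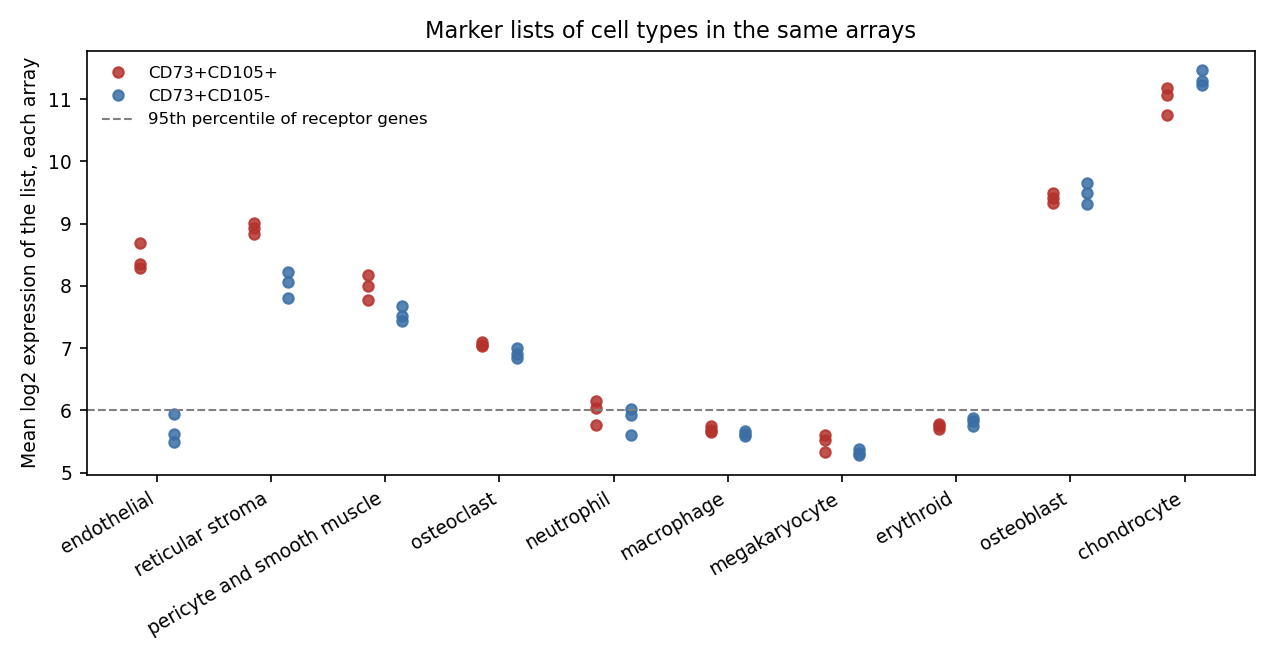
The mean log2 level of each marker list is plotted for every array (y axis), with CD73+CD105+ arrays in red on the left and CD73+CD105- arrays in blue on the right of each pair. Endothelial lists separate the populations most widely (8.29 to 8.69 against 5.50 to 5.94), while the neutrophil, macrophage, megakaryocyte and erythroid lists lie near or below the receptor level of 6.01.

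Mmp3, Mmp13 and Mmp2 came next among the MMPs, with groups that did not overlap but differences that missed the threshold. Mmp13, collagenase 3, the main collagenase of mouse hypertrophic cartilage and osteoblasts, stood at 12.03, 11.92 and 11.83 in CD73+CD105+ cells, against 11.56, 11.51 and 11.51 in CD73+CD105- cells. Its difference was 0.40 (SE 0.08, 1.32-fold, limma adjusted p = 0.0516, 95% interval 0.22 to 0.57). With dim genes left out of the fit and the adjustment the adjusted p of Mmp13 was 0.0465 or 0.046, depending on the filter. It was 0.0186 with a trended and robust variance and 0.0209 with array weights. With a term for replicate 1 it was 0.134, with a replicate block 0.138 and over replicates 2 and 3 alone 0.395. With 1 array left out it was 0.0787 to 0.206. Mmp2, gelatinase A, a gene of fibroblasts and reticular cells, stood at 12.49, 12.34 and 12.33 in CD73+CD105+ cells, against 12.002, 11.94 and 12.12 in CD73+CD105- cells. Its difference was 0.37 (SE 0.08, adjusted p = 0.0764), and it passed with a trended and robust variance (0.0321) and with array weights (0.0246). With a term for replicate 1 the adjusted p of Mmp2 was 0.207, over replicates 2 and 3 alone 0.487, and with 1 array left out 0.0792 to 0.279. Thus every CD73+CD105+ array lay above every CD73+CD105- array for both genes, by less than a doubling.

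Mmp3, stromelysin 1, which cuts proteoglycans and can activate procollagenases, stood at 10.55, 10.78 and 10.30 in CD73+CD105+ cells, against 10.20, 9.97 and 10.03 in CD73+CD105- cells. Its groups also did not overlap, although the lowest CD73+CD105+ array exceeded the highest CD73+CD105- array only narrowly (difference 0.47, SE 0.13, adjusted p = 0.127). Mmp14, the membrane-type enzyme that activates the MMP2 precursor together with TIMP2, stood at 11.18, 10.96 and 11.12 in CD73+CD105+ cells, against 10.80, 10.79 and 10.93 in CD73+CD105- cells (difference 0.24, SE 0.08, adjusted p = 0.199). Among the 5 membrane-type genes 0 passed, and the other 4 differed by -0.15 (Mmp25) to 0.01 (Mmp17). Mmp16, a further membrane-type enzyme, averaged 8.90 ± 0.21 in CD73+CD105+ cells, against 8.95 ± 0.22 in CD73+CD105- cells (SD, n = 3 each), with overlapping groups.

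The remaining 13 MMPs outside the membrane-type genes differed by between -0.23 (Mmp1b) and 0.34 (Mmp23), and 0 of them passed. Mmp19 showed the tightest arrays of these, at 6.77 ± 0.01 in CD73+CD105+ cells, against 6.65 ± 0.03 in CD73+CD105- cells (SD, n = 3 each), with a difference of 0.12 (adjusted p = 0.352). Mmp1a, one of the mouse counterparts of human MMP1, differed by 0.27 (adjusted p = 0.11), but both means lay far below the receptor level, at 3.78 in CD73+CD105+ cells, against 3.51 in CD73+CD105- cells. Also below it in both populations were Mmp8, the collagenase of neutrophils, Mmp12, the elastase of macrophages, Mmp7, the matrilysin of epithelia, and Mmp20, an enzyme of tooth enamel. Mmp10, stromelysin 2, averaged 6.56 ± 0.24 in CD73+CD105+ cells, against 6.51 ± 0.21 in CD73+CD105- cells (SD, n = 3 each).

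**Figure D4:**
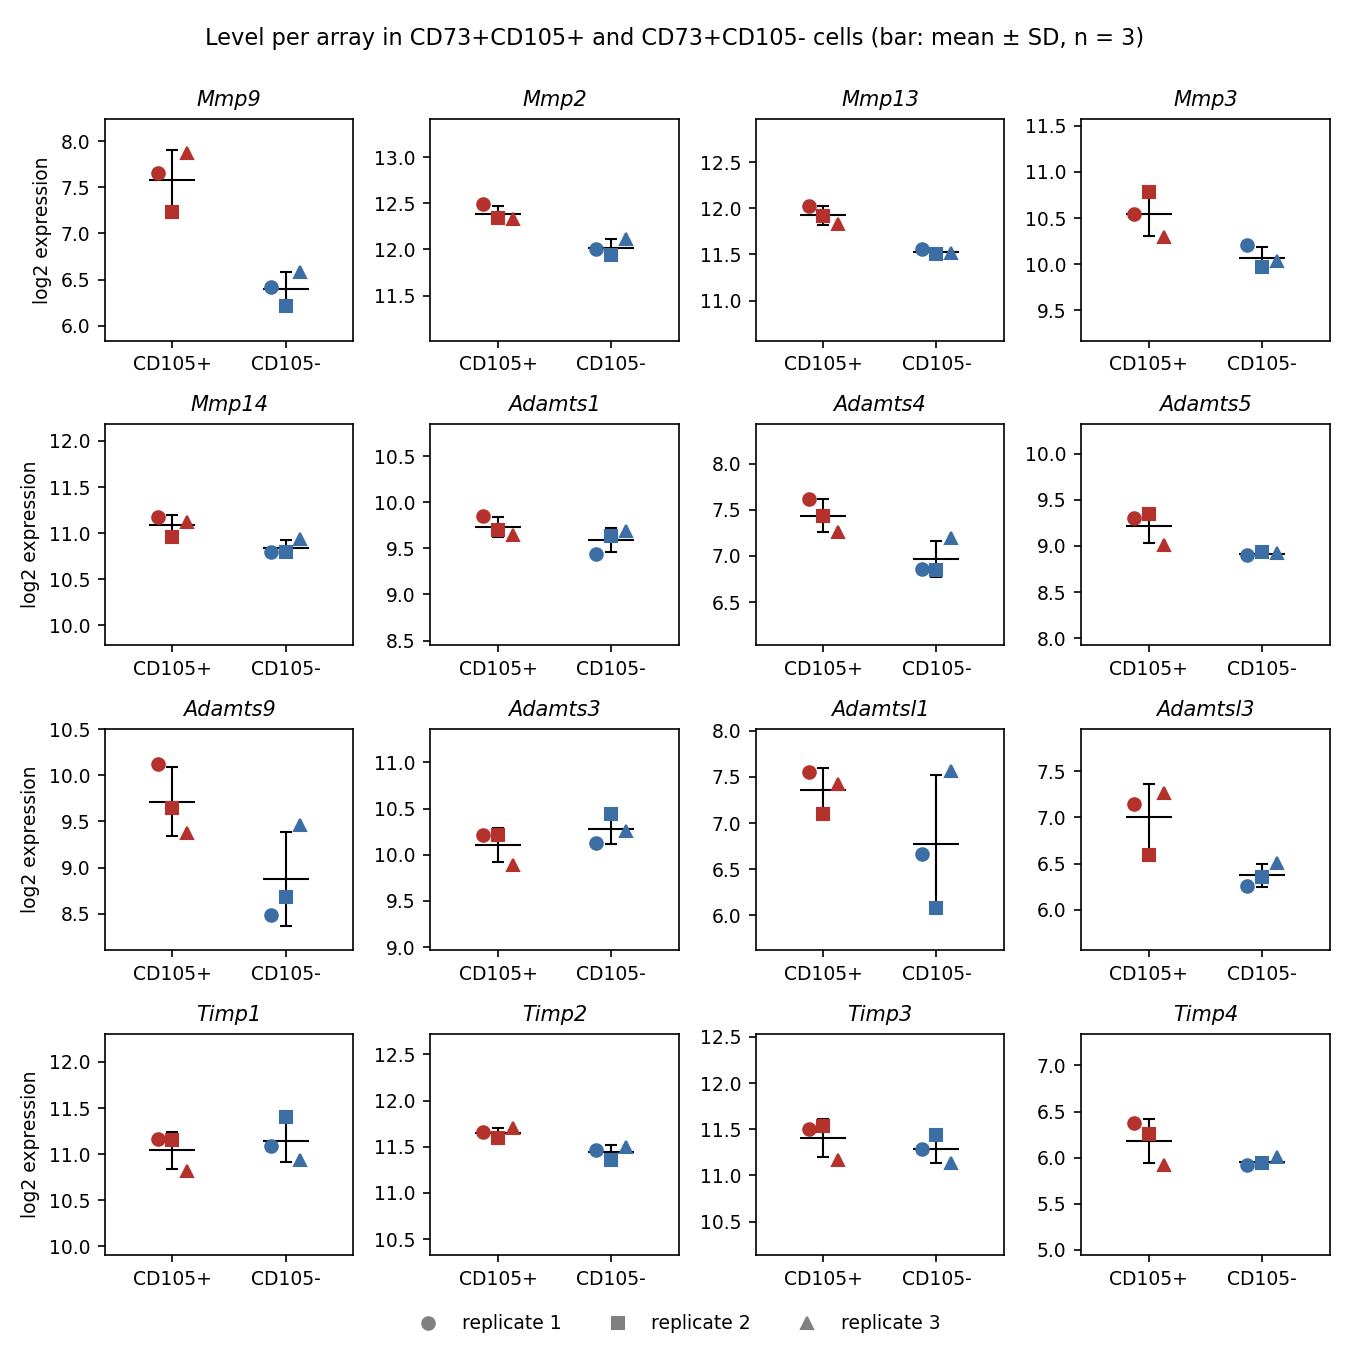
The log2 level on each array (y axis, all panels spanning the same range of log2 units) is shown for 16 members in CD73+CD105+ (left, red) and CD73+CD105- cells (right, blue), with marker shapes for the replicate number and bars for the mean ± SD. Mmp9 has the widest gap between groups, and Adamts9 and Adamtsl1 the widest spread among CD73+CD105- arrays.

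Among the 18 ADAMTS proteases 0 passed, and 12 differences lay above 0. At an unadjusted p under 0.05 there were 3, all higher (8.58% of all genes were higher at that p): Adamts9, Adamts4 and Adamts5. These belong to the proteoglycan-cutting branch, which cleaves versican and aggrecan. Other genes of that branch did not reach that p: Adamts15 (difference 0.27), Adamts1 (0.14), Adamts8 (-0.10) and Adamts20 (-0.06, below the receptor level in both populations). Adamts9 stood at 10.12, 9.65 and 9.37 in CD73+CD105+ cells, against 8.49, 8.68 and 9.46 in CD73+CD105- cells. CD73+CD105- replicate 3 thus reached into the CD73+CD105+ range, and the difference of 0.84 (SE 0.28, adjusted p = 0.187) was 1.63 within replicate 1, against 0.44 over replicates 2 and 3. The 6 Adamts9 probe sets all differed by more than 0, with values from 0.31 to 1.43.

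Adamts4, aggrecanase 1, stood at 7.62, 7.44 and 7.26 in CD73+CD105+ cells, against 6.86, 6.85 and 7.20 in CD73+CD105- cells (difference 0.47, SE 0.13, adjusted p = 0.127). Adamts5, aggrecanase 2, stood at 9.30, 9.35 and 9.01 in CD73+CD105+ cells, against 8.90, 8.93 and 8.92 in CD73+CD105- cells (difference 0.30, SE 0.10, adjusted p = 0.183). In both genes the groups did not overlap, with the CD73+CD105+ replicate 3 array nearest to the CD73+CD105- arrays. Adamts1, another versican-cutting protease, stood at 9.86, 9.70 and 9.64 in CD73+CD105+ cells, against 9.44, 9.63 and 9.69 in CD73+CD105- cells, with overlapping groups (difference 0.14, SE 0.10, adjusted p = 0.487). Its difference was 0.41 within replicate 1, against 0.00689 over replicates 2 and 3.

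Of the procollagen-trimming branch, Adamts3 stood at 10.21, 10.21 and 9.89 in CD73+CD105+ cells, against 10.13, 10.44 and 10.26 in CD73+CD105- cells. The groups overlapped, and the difference of -0.17 (SE 0.12, adjusted p = 0.508) depended on the probe set: the 15 other Adamts3 probe sets differed by -0.42 to 0.54. The mean of all 16 differed by 0.12 and the most variable one by 0.49. Adamts14, of the same branch, averaged 6.28 in both populations. Adamts13, whose product cuts von Willebrand factor, lay below the receptor level in both populations, at 5.50 ± 0.12 in CD73+CD105+ cells, against 5.62 ± 0.15 in CD73+CD105- cells (SD, n = 3 each).

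The 5 ADAMTS-like genes were all above the receptor level, 0 passed and 4 had a difference above 0. Adamtsl3 stood at 7.15, 6.59 and 7.26 in CD73+CD105+ cells, against 6.26, 6.36 and 6.50 in CD73+CD105- cells. Its groups did not overlap (difference 0.63, SE 0.17, adjusted p = 0.129), and without CD73+CD105+ replicate 2 the difference was 0.83 with an adjusted p of 0.022. Leaving out each of the other 5 arrays gave Adamtsl3 differences of 0.50 to 0.69 with adjusted p-values of 0.153 to 0.345, and a term for replicate 1 gave 0.255. Adamtsl1 stood at 7.56, 7.09 and 7.42 in CD73+CD105+ cells, against 6.66, 6.08 and 7.56 in CD73+CD105- cells (difference 0.59, SE 0.34, adjusted p = 0.425). Here too CD73+CD105- replicate 3 was the highest of its group by a wide margin, and the difference was 0.99 (adjusted p = 0.0839) with that array left out and 0.25 with CD73+CD105- replicate 2 left out. Adamtsl5, which binds fibrillin, averaged 6.84 ± 0.06 in CD73+CD105+ cells, against 6.53 ± 0.10 in CD73+CD105- cells (SD, n = 3 each; difference 0.31, adjusted p = 0.107). Adamtsl2, a modulator of TGF-beta in the microfibril, was the only 1 of the 5 with a difference below 0, at 6.46 ± 0.04 in CD73+CD105+ cells, against 6.65 ± 0.07 in CD73+CD105- cells (SD, n = 3 each; difference -0.19, adjusted p = 0.229).

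The inhibitors did not pass in either direction. Timp1, the soluble inhibitor that binds the MMP9 precursor, stood at 11.17, 11.16 and 10.81 in CD73+CD105+ cells, against 11.09, 11.40 and 10.94 in CD73+CD105- cells. Its groups overlapped, and the 95% interval of the difference of -0.10 was -0.44 to 0.24; it was 0.02 with CD73+CD105+ replicate 3 left out, or 0.03 when CD73+CD105- replicate 2 was. Timp2 stood at 11.66, 11.59 and 11.70 in CD73+CD105+ cells, against 11.46, 11.35 and 11.50 in CD73+CD105- cells. These Timp2 groups did not overlap (difference 0.21, SE 0.07, adjusted p = 0.199, 95% interval 0.04 to 0.38).

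Timp3, the inhibitor bound to matrix, stood at 11.51, 11.54 and 11.17 in CD73+CD105+ cells, against 11.29, 11.44 and 11.14 in CD73+CD105- cells. Replicate 3 was the lowest array of both populations for Timp3 and Timp1, and the Timp3 difference was 0.12 (SE 0.13, adjusted p = 0.678, 95% interval -0.18 to 0.41). Leaving out 1 array gave Timp3 differences from 0.04, with CD73+CD105- replicate 3 left out, to 0.23, with CD73+CD105+ replicate 3 left out; it was 0.05 and 0.06 with CD73+CD105+ replicates 2 and 1 left out and 0.19 with CD73+CD105- replicate 2 left out. Timp4 stood at 6.37, 6.26 and 5.92 in CD73+CD105+ cells, against 5.92, 5.94 and 6.01 in CD73+CD105- cells, near the receptor level (difference 0.23, SE 0.12, adjusted p = 0.38). Differences between populations cannot be set against one another as a ratio of enzyme to inhibitor, since the arrays give a relative level per probe set.

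Genes that act on or beside these families were read from 5 further lists. Of 9 measured genes of protease activation and the plasminogen system 0 passed (median -0.07). The plasminogen activator gene Plat stood at 9.32, 9.36 and 8.26 in CD73+CD105+ cells, against 8.17, 8.59 and 8.46 in CD73+CD105- cells. Its difference of 0.57 (adjusted p = 0.359) was 0.93 with an adjusted p of 0.0467 without CD73+CD105+ replicate 3, the array that lay low. It was 0.38 (adjusted p = 0.546) without CD73+CD105+ replicate 2 and 0.29 (0.846) over replicates 2 and 3 alone, and a term for replicate 1 gave an adjusted p of 0.518. The urokinase receptor gene Plaur differed by -0.41 (adjusted p = 0.394) and urokinase, Plau, by 0.30 (adjusted p = 0.315).

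Of 15 cell surface regulators, clearance receptors and other inhibitors 1 rose, Spock3, which encodes a testican, a proteoglycan of the extracellular space (median of the list -0.00905). Spock3 stood at 6.20, 5.61 and 6.15 in CD73+CD105+ cells, against 4.99, 5.01 and 5.21 in CD73+CD105- cells, with both means below the receptor level. Its difference of 0.92 (SE 0.16, adjusted p = 0.0432) lost the call with a term for replicate 1 (adjusted p = 0.102), with arrays centred again (0.0596) or quantile normalized again (0.0568). It also lost it without any 1 of the arrays except CD73+CD105+ replicate 2: 0.14 and 0.122 without CD73+CD105+ replicates 1 and 3, and 0.148, 0.128 and 0.0682 without CD73+CD105- replicates 1, 2 and 3. Reck, the membrane-anchored MMP inhibitor, differed by -0.00905 (95% interval -0.18 to 0.16).

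Of 12 ADAM proteases, the membrane-bound relatives that shed surface proteins, 0 passed (median 0.08), with Adam23 at 0.48 (adjusted p = 0.0944), Adam12 at 0.29 (adjusted p = 0.535) and Adam9 at 0.24 (adjusted p = 0.335). Of 10 astacin and other matrix-degrading enzymes 0 passed (median 0.08), with Tll1, a procollagen C-proteinase, at 0.50 (adjusted p = 0.316), Ctsk at 0.27 and Htra1 at 0.12 (adjusted p = 0.42).

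Of 18 measured substrates 1 rose and 0 fell (median 0.19). That gene was Vwf, the von Willebrand factor of endothelium and platelets and the substrate of ADAMTS13. It stood at 8.47, 8.09 and 8.35 in CD73+CD105+ cells, against 6.40, 6.41 and 6.63 in CD73+CD105- cells, and every CD73+CD105+ array lay above every CD73+CD105- array. The difference was 1.83 (SE 0.12, 3.55-fold, adjusted p = 0.000779) and passed under all 17 alternatives tried, with adjusted p-values up to 0.0394, the term for replicate 1 included. Vwf moved with the endothelial markers named above, and their part in its difference was not tested.

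**Figure D5:**
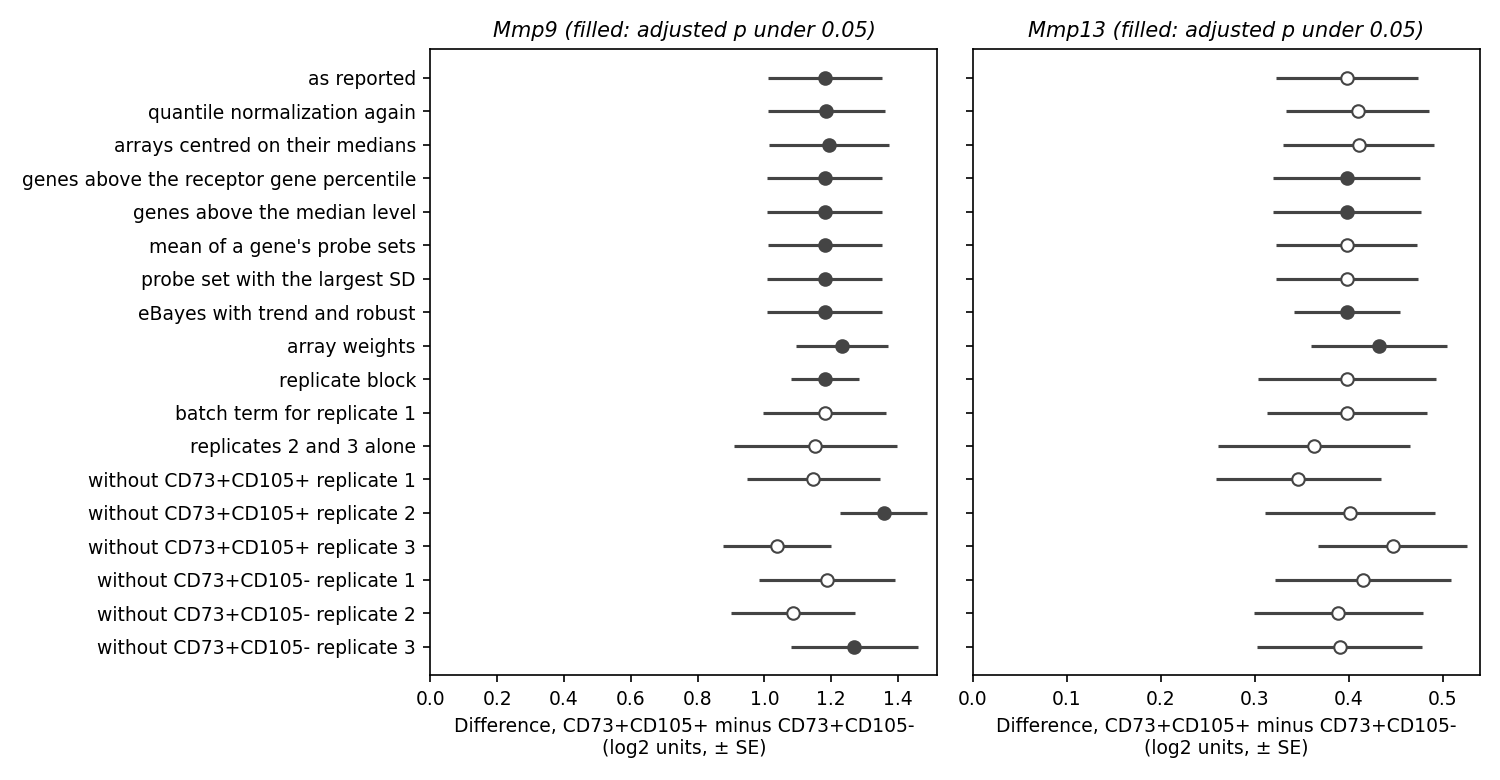
Differences of Mmp9 (left) and Mmp13 (right), CD73+CD105+ minus CD73+CD105- in log2 units with standard errors (x axis), are shown as reported and under 17 other choices of processing or arrays (y axis). Filled points have an adjusted p under 0.05: the Mmp9 difference stays between 1.04 and 1.36 and passes in 11 of the 17, and the Mmp13 difference stays between 0.35 and 0.45 and passes in 4. The 17 are not independent checks. Mmp9 and Mmp13 have 1 probe set each, so the probe set rules refit the same values. The filters, the trended and robust variance, the replicate block and the term for replicate 1 cannot move the difference, only its error.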

How the data were processed

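The authors deposited log2 expression values per probe set, made with RMA per the submitters' processing notes; RMA corrects background, normalizes by quantiles and summarises probes. The RMA version is not given in the sources used here, nor is the build. Detection calls and scanner files were not used. RMA compresses differences of dim genes. The number of arrays limits the precision. Of 35556 probe sets 21789 had 1 symbol in the platform annotation, and per gene the probe set with the highest mean over the 6 arrays was used (19938 genes; 4 members had several). All 49 members matched the RefSeq gene table by Entrez ID. Groups came from the sample titles. The fit was limma 3.58.1 in R 4.3.3, 3 arrays against 3, two-sided, without a block, with Benjamini-Hochberg adjustment over all genes (threshold 0.05). On simulated data for this comparison of 19938 genes, limma recovered 83% of 100 genes shifted by 1 log2 unit and 99% of 100 shifted by 2. Noise was drawn independently with the SDs of these arrays and without the replicate 1 balance. Smaller shifts, such as those of all members but Mmp9, were not simulated.

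Members and lists were chosen with earlier results of these data known. Named with values in every array were members past the threshold, the 8 largest differences among members above the receptor gene percentile, the TIMPs, and the 4 highest MMPs and 4 highest ADAMTS or ADAMTSL genes; other members stand in ranges or as examples of their branch. Other lists gave the genes past the threshold or, with none, the 3 largest differences, and Reck was added after its value was seen. Probe sets differ in brightness for reasons other than transcript level, so their order in level served only to choose genes, and the receptor level is a rough mark of background. Alternatives were other normalizations, filters, probe set rules, variance models, array weights, a replicate block, a term for replicate 1, replicates 2 and 3 alone and leaving out each array. Figures were drawn with matplotlib 3.10.9.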

Additional observations from a re-analysis of the deposited data

How the results depend on the processing

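Of the 49 members, 1 passed as reported, and the number was 2 over genes above the receptor level and 2 over those above the median level, where fewer genes were tested. It was 3 with a trended and robust variance, 8 with array weights (Mmp9, Mmp13, Mmp2, Mmp1a, Adamts4, Adamts9, Adamtsl3 and Adamtsl5), 0 with a term for replicate 1 and 0 in replicates 2 and 3 alone, and 0 to 2 with 1 array left out. All of these calls were higher in CD73+CD105+ cells, and Mmp9 was among them in each of the 11 alternatives with any. Over all genes the count of 363 was 1331 with array weights, where the replicate 1 arrays had the largest weights (2.44 and 1.61), 101 with a term for replicate 1, 29 in replicates 2 and 3 alone and 86 to 293 with 1 array left out. The cause of these shifts was not tested. The median difference of the members (0.11) was 0.23 over genes above the median level, with 26 members, and 0.06 to 0.15 with 1 array left out. Adamts3 reversed to 0.12 with the mean of its probe sets and to 0.49 with the most variable one, and Timp1 ranged from -0.20 to 0.0289 with 1 array left out. Of 271 further values of the named members, 251 kept direction and side of the threshold. Only Mmp9 of these members had passed as reported, so for the others this mostly counts genes that again did not pass. Mmp9 itself passed in 11 of the 17 alternatives, which are not independent checks. It has 1 probe set, so the probe set rules refit the same values. The filters, the trended and robust variance, the replicate block and the term for replicate 1 left its difference at 1.18. Whether the titles' replicate numbers pair the samples could not be decided from same-numbered deviations (r -0.883, 0.00659 and 0.104). Both replicate 1 arrays together average close to the remaining arrays, so their deviations must run opposite ways, paired or not. The deviations of replicates 2 and 3 are constrained by this too. With the replicate block 215 genes and 1 member, Mmp9 (adjusted p = 0.00732), passed. Depth is not defined for arrays, and members near or below the receptor level are limited by background.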
